A study of Mus musculus with 6 samples.

Results

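The integrin and laminin chain genes were followed in MICs and non-MICs, a pair of populations sorted from primary MMTV-PyMT mammary tumors. All mouse genes whose symbol names an integrin alpha chain, an integrin beta chain or a laminin alpha, beta or gamma chain were taken. The annotation holds 37 such genes and the table of 22310 genes holds 36 of them: 17 integrin alpha chains, 8 integrin beta chains and 11 laminin chains. The exception is Itgad, which has no row. The tumors arose spontaneously in MMTV-PyMT females on the FVB/N background aged 12 to 18 weeks, in which the MMTV promoter drives the PyMT oncoprotein in mammary epithelium. The dissociated cells, MICs and non-MICs alike, were kept overnight on collagen-coated plates in DMEM/F12 with FBS, insulin and hEGF, then sorted as cells without CD45, CD31 and Ter119 (Lin−) and with CD24. MICs, or metastasis-initiating cells, were the CD90+ cells of that gate and non-MICs the CD90- cells. The labels add a "WT" genotype to both populations, and each population has 3 libraries, numbered 1 to 3.

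Integrins are receptors that join the matrix outside a cell to the actin cytoskeleton, or in the case of α6β4 to keratins. Each is a pair of an alpha and a beta chain, and the alpha chain largely sets which ligand is bound. Laminins are trimers of an alpha, a beta and a gamma chain that form the basement membrane on which mammary epithelium sits. Laminin-332 and laminin-511 are the main laminins under epithelia, and α3β1 and α6β4 are their main epithelial receptors.

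The deposited values are read counts scaled to the total of each library, called normalized read counts here, and they go back to between 31467281 and 51759769 recovered reads per library. The sort was visible in the values, since Thy1, which encodes CD90, stood at 1509, 301 and 755 in MICs 1, 2 and 3 against 16.9, 21.1 and 12.6 in the same-numbered non-MICs. Cd24a, the other gate gene, differed by only -0.31, 0.38 and -0.12 between the members of the 3 pairs on the log2(value + 1) scale. Of the listed markers of basal or myoepithelial cells, 6 of 9 rose in MICs by edgeR with the replicate block (the replicate number as a term of the fit). By that test 1.04% of all genes rose and 0.372% fell. This list and the marker lists below were chosen with earlier results of these data known, so such counts are descriptions. The summed value of the 9 basal markers was 24380 to 429054 in MICs and 24140 to 145058 in non-MICs. The 9 luminal markers summed to 221480 to 613053 and 289174 to 727426, and 1 of them, Elf5, fell. The summed values of 9 fibroblast markers were 673 to 2168 and 588 to 1160, with Dpt at 3 reads or fewer in every library, and those of 5 pericyte markers were 32.3 to 89.3 and 19.0 to 20.3, with Rgs5 and Kcnj8 at 3 reads or fewer. Of these, 2 fibroblast markers (Col1a2 and Dcn) and 1 pericyte marker (Cspg4) rose in MICs by edgeR with the block. In all 3 pairs 4 fibroblast and 3 pericyte markers were higher (12.5% of all genes), and the other 5 and 2 were mixed. Among the mixed ones, Col1a1 had pair differences of -0.19, -0.62 and 1.65 and Col3a1 of -0.36, -0.33 and 2.67. Leukocyte markers, 10 of 12 in the table, summed to 1387 to 3509 and 1275 to 3203, and endothelial markers, 7 of 8 in the table, to 55.4 to 75.5 and 32.8 to 77.1, with Erg at 3 reads or fewer. Cd14 alone stood at 1179, 1391 and 3098 in MICs 1, 2 and 3 and at 1048, 1274 and 2729 in non-MICs. It was the largest part of the leukocyte sum except in MIC 2, where Lyz2 was at 1635. The part of these markers in the results on chain genes was not tested, and in bulk RNA fewer cells of a type and less RNA per cell cannot be told apart.

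The replicate numbers differed widely in the level of some chain genes. Lama1 differed 32.2-fold between the highest and the lowest replicate mean, Itga2 11.5-fold, Itga2b 6.71-fold, Lama3 6.20-fold and Itgb3 5.99-fold. Lamc1, Itga8, Itga7 and Itgav were the steadiest, at 1.26-fold, 1.27-fold, 1.27-fold and 1.28-fold. None of the 36 genes had MIC values that all lay on 1 side of the non-MIC values, whereas 6.24% of all genes did. For this reason the pair differences, each MIC library minus the non-MIC library of the same number on the log2(value + 1) scale, are given for the members described at length. The paper counts its replicates as independent experiments or tumors, and the labels do not tie a library to an animal. The p-values thus rest on these libraries, and they draw on the variance of all genes as well as on a gene's own spread.

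Over the pairs, 10 of the 36 genes were higher in MICs in all 3 (Itga1, Itga2, Itga4, Itga9, Itga11, Itgav, Itgb1, Itgb3, Lama1 and Lama4), as were 12.5% of all genes. All 4 that were lower in all 3 pairs (Itga10, Itga2b, Itgb4 and Lamb2) stand against 18.8% of all genes. When the values were rescaled by TMM factors the numbers became 9 and 3, because Itga1 and Itgb4 each had 1 pair close to 0, and under quantile normalization Itga1, Itga9 and Itgb1 no longer pointed 1 way. The median log2 fold change of the members was 0.17, with 27 of 36 above 0, against a median of -0.04 and 10229 of 22310 for all genes. The members' median was 0.11 without MIC 1 and 0.29 without MIC 2. The members' median by pair was 0.25, -0.11 and 0.23 for numbers 1, 2 and 3, so pair 2 lay on the other side of 0.

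By limma without a block, 0 of the 36 genes passed an adjusted p of 0.05 and 0 passed an unadjusted p of 0.05. The same fit called 0% of all genes after adjustment and 1.44% before it. With the replicate block, limma again called 0 members (0.13% of all genes) and 10 had an unadjusted p under 0.05 (11.2% of all genes), 8 of them higher in MICs and 2 lower. The edgeR quasi-likelihood test on recovered reads with the same block called 3 members, all higher in MICs, against 1.04% of all genes called higher. It called 0 members lower, against 0.372% of all genes. On GRCm38 these genes are Itga5 (ENSMUSG00000000555, chr15:103344286-103366763, minus strand), Itga1 (ENSMUSG00000042284, chr13:114953096-115101964, minus strand) and Itgb3 (ENSMUSG00000020689, chr11:104608000-104670476, plus strand). At an unadjusted p under 0.05, edgeR with the block had 12 members (11.7% of all genes). DESeq2 with the block called 0 members after adjustment (0.596% of all genes, where those it left without an adjusted p count as not called) and 9 at an unadjusted p under 0.05 (8.58%).

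**Figure D1:**
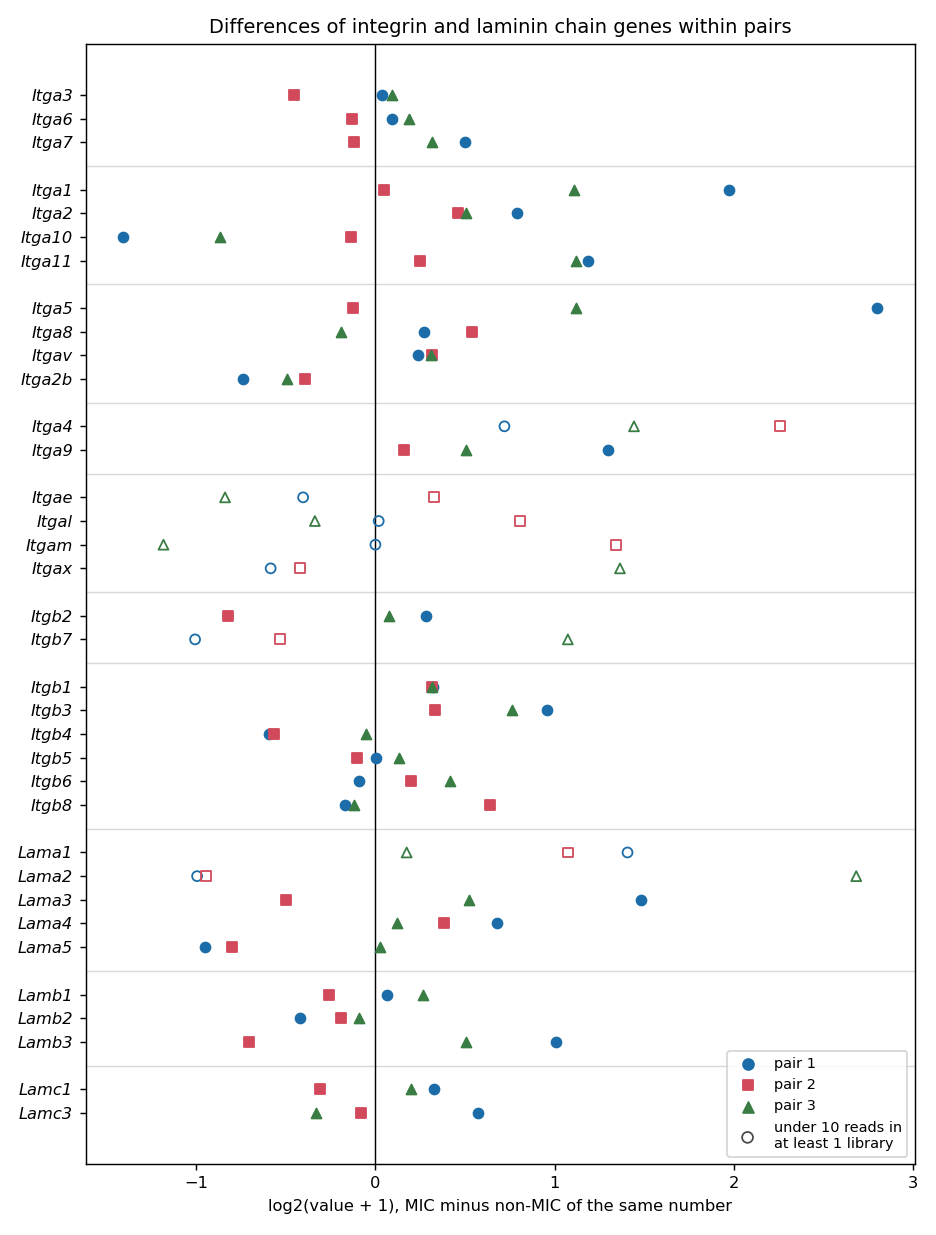
Difference of log2(value + 1) between the MIC and the non-MIC library of the same number, for 35 of the 36 genes, with grey lines between functional groups. Circles, squares and triangles are pairs 1, 2 and 3, and open symbols mark the 8 genes with fewer than 10 reads in at least 1 library. Itga5 and Itga1 spread widest among the well-covered genes that passed the edgeR test, from -0.12 to 2.80 and from 0.05 to 1.97, and the 3 symbols of Itgb1 sit together near 0.32.

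Among the RGD-binding alpha chains, Itga5 encodes the alpha chain of α5β1, the main fibronectin receptor. In MICs 1, 2 and 3 the normalized read count of Itga5 was 10516, 5106 and 1949, against 1510.3, 5567 and 898 in the same-numbered non-MICs. It was thus 6.96-fold higher in MICs of pair 1 and 2.17-fold higher in pair 3, and slightly lower, at 0.92 of the non-MIC value, in pair 2. Its mean log2 difference was 1.26 ± 0.37 (SE of limma with the block, n = 3 pairs). That SE draws on the variance of all genes and is not the spread of the 3 pair differences alone. The adjusted p was 4.39e-06 by edgeR and 0.385 by limma, both with the block. The call depended on pair 1: without it edgeR with the block gave a log2 difference of 0.47 and an adjusted p of 1.00. By the same fit, without pair 2 it gave 2.02 and 1.11e-12, and without pair 3 it gave 1.35 and 6.76e-05. DESeq2 with the block gave an adjusted p of 0.492. Beside it, the summed basal markers differed by 1.56, 0.01 and 0.62 on the log2 scale in pairs 1, 2 and 3, and the summed fibroblast markers by 0.90, -0.14 and 1.77. A few abundant genes weigh most in such sums. The median difference over the single markers was 1.94, 1.48 and 1.18 for the basal list and -0.15, 0.10 and 1.65 for the fibroblast list.

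Itgav, the alpha chain shared by the vitronectin and TGF-beta-activating integrins, was higher by a small and even amount. Itgav stood at 8119, 6873 and 8803 in MICs 1, 2 and 3 and at 6888, 5516 and 7088 in non-MICs. Its pair differences were 0.24, 0.32 and 0.31, and its log2 difference of 0.29 had a 95% interval of -0.06 to 0.64 by limma with the block. Itga8, the alpha chain of the nephronectin receptor, ranged from 377 to 640.5 and had pair differences of 0.27, 0.54 and -0.19. Itga2b, the platelet alpha chain, was lower in all 3 pairs at a low level, with 42.1, 232 and 33.1 in MICs 1, 2 and 3 and 70.9, 305 and 47.0 in non-MICs. Its pair differences were -0.74, -0.39 and -0.49, its mean log2 difference was -0.54 ± 0.30 and its adjusted p by edgeR with the block was 0.478.

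Of the 4 collagen-binding alpha chains, Itga1, Itga2 and Itga11 were higher in MICs in all 3 pairs and Itga10 was lower in all 3. The cells had spent the night before the sort on collagen, in both populations. Itga1, the alpha chain of α1β1, had 389, 194 and 60.2 normalized reads in MICs 1, 2 and 3 and 98.4, 187 and 27.4 in the matching non-MICs. MIC 2 and non-MIC 2 were nearly equal, whereas the MIC value was 3.95-fold and 2.20-fold the non-MIC value in pairs 1 and 3. The adjusted p of Itga1 was 0.0253 by edgeR and 0.417 by limma, both with the block. By edgeR with the block it became 1.00 without pair 1, in a fit that called 0 members. The log2 difference of Itga1 was 0.52 in that fit and 1.05 with all pairs. Its adjusted p was 0.0783 without pair 3 and 3.46e-05 without pair 2. Rescaling by TMM factors turned its pair 2 difference from 0.05 to -0.06.

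Itga2 encodes the alpha chain of α2β1, the main collagen receptor of epithelial cells. MICs 1, 2 and 3 had 6769.6, 2392 and 27834 normalized reads of Itga2, and non-MICs 3912, 1740.1 and 19644. Replicate 3 was far above the others in both populations, and yet the MIC library was 1.73-fold, 1.37-fold and 1.42-fold above its partner. With the block the log2 difference was 0.58 ± 0.16 (limma SE, n = 3 pairs), with an adjusted p of 0.373 by limma, 0.16 by edgeR and 0.0836 by DESeq2. Itga11, the alpha chain of a collagen receptor best known from fibroblasts, stood at 163, 153 and 92.6 in MICs against 70.9, 129 and 42.1 in non-MICs. Its pair differences were 1.19, 0.25 and 1.12, and edgeR with the block gave an adjusted p of 0.143. Itga10, known from cartilage, had 23.7, 63.4 and 31.1 normalized reads in MICs against 64.6, 69.7 and 57.5 in non-MICs, so that pairs 1 and 3 were lower by 1.41 and 0.87 and pair 2 by 0.14. Its adjusted p by edgeR with the block was 0.328.

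The promoter windows of Itga4, Itga9 and Itgav, also higher in MICs in all 3 pairs, were at hand but are not printed. Those of 5 other chains are shown. Of these genes 4 were higher in MICs in all 3 pairs, and the remaining one, Itga5, had the smallest edgeR p of the members. Each window shown runs from 250 bases before to 50 bases after the RefSeq transcription start on GRCm38.p6, 5′ to 3′ on the strand of the gene, with motif matches in capitals.
Itga5 (chr15:103366742-103367041, minus strand): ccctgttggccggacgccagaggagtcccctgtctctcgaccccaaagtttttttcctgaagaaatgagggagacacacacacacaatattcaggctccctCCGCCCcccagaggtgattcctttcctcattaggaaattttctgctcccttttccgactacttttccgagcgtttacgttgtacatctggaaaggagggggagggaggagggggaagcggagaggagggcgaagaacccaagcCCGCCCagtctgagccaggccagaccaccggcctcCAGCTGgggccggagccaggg
Itga1 (chr13:115101915-115102214, minus strand): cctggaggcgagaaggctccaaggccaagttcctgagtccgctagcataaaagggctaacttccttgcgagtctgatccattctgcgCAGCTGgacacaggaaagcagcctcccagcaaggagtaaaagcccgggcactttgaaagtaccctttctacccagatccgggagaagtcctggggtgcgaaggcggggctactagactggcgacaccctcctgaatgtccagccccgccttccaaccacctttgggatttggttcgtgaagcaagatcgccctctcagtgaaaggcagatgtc
Itga2 (chr13:114932051-114932350, minus strand): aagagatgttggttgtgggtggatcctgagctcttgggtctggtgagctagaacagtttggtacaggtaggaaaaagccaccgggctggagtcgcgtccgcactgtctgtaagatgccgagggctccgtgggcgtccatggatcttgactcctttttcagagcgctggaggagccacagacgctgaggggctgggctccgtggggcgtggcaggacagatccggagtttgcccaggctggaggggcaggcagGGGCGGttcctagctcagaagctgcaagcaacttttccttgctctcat
Itga11 (chr9:62677605-62677904, plus strand): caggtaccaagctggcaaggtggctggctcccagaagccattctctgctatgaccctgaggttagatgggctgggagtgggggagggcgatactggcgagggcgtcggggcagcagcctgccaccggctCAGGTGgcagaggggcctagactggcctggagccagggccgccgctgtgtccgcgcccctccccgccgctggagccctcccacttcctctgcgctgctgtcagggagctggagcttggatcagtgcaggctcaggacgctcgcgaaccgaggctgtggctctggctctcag
Itgb1 (chr8:128685404-128685703, plus strand): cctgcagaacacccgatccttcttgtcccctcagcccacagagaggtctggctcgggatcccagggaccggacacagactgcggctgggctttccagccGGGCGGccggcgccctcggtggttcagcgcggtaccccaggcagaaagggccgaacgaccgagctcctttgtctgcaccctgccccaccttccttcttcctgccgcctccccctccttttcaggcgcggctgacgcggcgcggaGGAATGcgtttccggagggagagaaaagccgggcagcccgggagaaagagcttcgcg

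The motifs searched on both strands were AP-1 (TGANTCA), TEAD (GGAATG), the E-boxes CAGCTG and CACCTG, Sp1 (GGGCGG) and the CArG box by name, none of which overlapped in these windows. Positions count from the start, with -1 the base before it and 1 the first transcribed base. Itga5 held Sp1 matches at -149 to -144 and at -6 to -1 and CAGCTG at 30 to 35, and Itga1 held CAGCTG at -163 to -158. Itga2 had an Sp1 match at 3 to 8, Itga11 had CACCTG at -121 to -116, and Itgb1 had Sp1 at -151 to -146 and TEAD at -7 to -2. No motif was common to the 5 windows, and no AP-1 or CArG letters were found in them. The window of Itga9, not printed, did hold an AP-1 match. RefSeq windows were at hand for 23 of the 36 members (26 windows). CAGCTG was in 30.8% of these and in 16.3% of all 32851 windows, CACCTG in 30.8% and 20.2%, Sp1 in 46.2% and 35.7%, TEAD in 11.5% and 14.7%, AP-1 in 11.5% and 7.81%, and the CArG box in 7.69% and 1.63%. These matches describe letters and were not tested as binding sites.

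Itgb3, the beta chain of the vitronectin receptor αvβ3, was the third gene that passed the edgeR test. In MICs 1, 2 and 3 the normalized read count of Itgb3 was 3103, 480.5 and 3249.8, against 1600.3, 381 and 1917 in the same-numbered non-MICs. Replicate 2 was several-fold below replicates 1 and 3 in both populations, and within each number the MIC library was the higher one. The pair differences were 0.96, 0.33 and 0.76, and the log2 difference of 0.68 ± 0.18 had a 95% interval of 0.30 to 1.07 by limma with the block. Its adjusted p was 0.0344 by edgeR, 0.0647 by DESeq2 and 0.298 by limma, all with the block. By edgeR with the block it was 1.00 without pair 1, in a fit that called 0 members. The log2 difference of Itgb3 was 0.54 in that fit and 0.70 with all pairs. Its adjusted p was 0.0085 without pair 2 and 0.0951 without pair 3.

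Itgb1 is the beta chain that pairs with most of the alpha chains above and was the most abundant member per kilobase of exon. Itgb1 stood at 109320.0, 67852 and 87053 in MICs 1, 2 and 3 and at 87558, 54589 and 69813 in non-MICs. The MIC library was 1.25-fold, 1.24-fold and 1.25-fold above its partner, which left pair differences of 0.32, 0.31 and 0.32 on the log2 scale. The populations overlapped all the same, with non-MIC 1 above MICs 2 and 3. With the block limma gave an interval of -0.16 to 0.80, which draws on the variance of all genes, and an adjusted p of 0.597. The adjusted p was 0.676 by edgeR and 0.375 by DESeq2. Quantile normalization brought the 3 differences to 0, 0.13 and 0.17.

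Of the other beta chains, Itgb6, whose product activates TGF-beta at epithelial surfaces with αv, did not point 1 way. MICs 1, 2 and 3 had 4671, 1374 and 3579.8 normalized reads of Itgb6, and non-MICs 4969, 1195 and 2684. Its pair differences were -0.09, 0.20 and 0.42 and its adjusted p by edgeR with the block was 0.847. Itgb5, the beta chain of a further vitronectin receptor, ranged from 2702 to 6386 with pair differences of 0.00, -0.10 and 0.13. Itgb8, another TGF-beta-activating chain, ranged from 442 to 735 with pair differences of -0.17, 0.64 and -0.12. Both were near 0 on average, at 0.01 and 0.12.

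**Figure D2:**
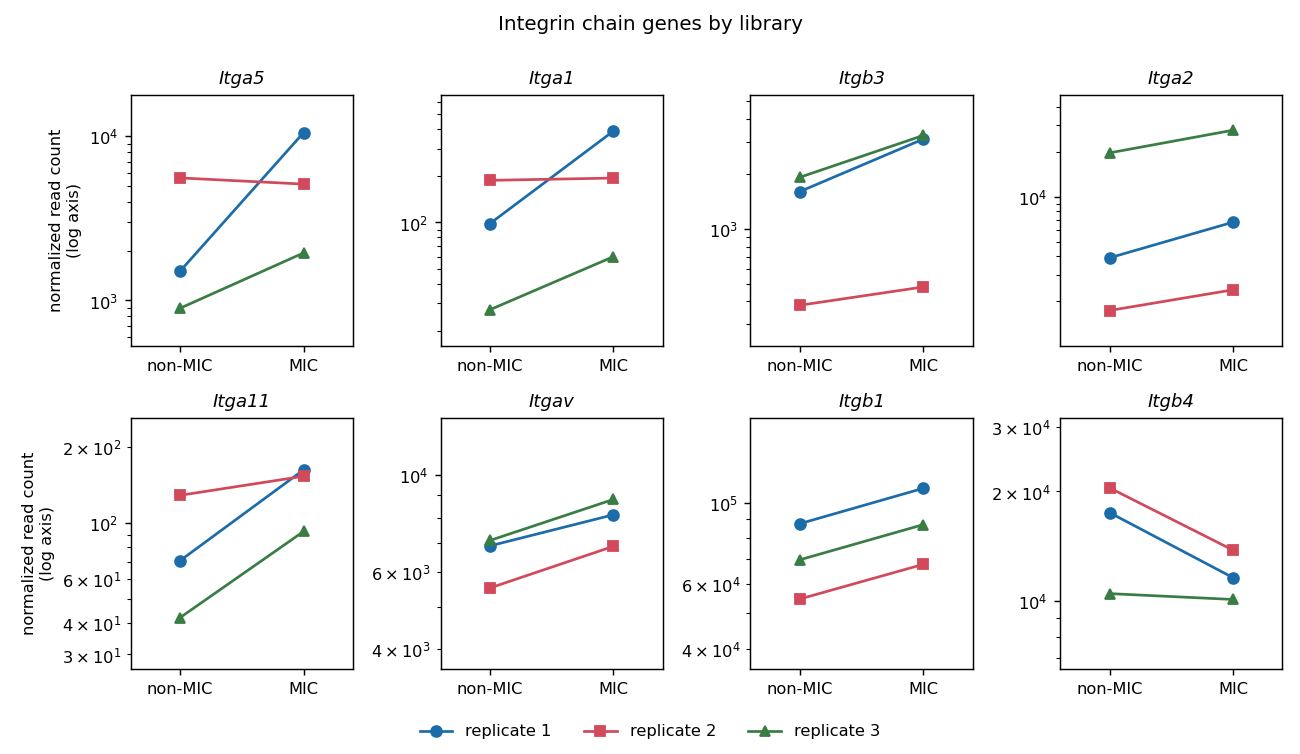
Normalized read counts of 8 integrin chain genes in non-MICs (left) and MICs (right) on log axes, with a line for each replicate number. The lines of Itgb1 and Itgav run nearly parallel upward, those of Itgb4 run downward by 0.59, 0.57 and 0.05 on the log2 scale, and those of Itga5 run upward in replicates 1 and 3 but not in replicate 2.

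Of the epithelial laminin receptor chains, Itga3, the alpha chain of α3β1, was the second most abundant member per kilobase. In MICs 1, 2 and 3 the normalized read count of Itga3 was 57334, 73791 and 61995, against 55824, 101249 and 58098 in the same-numbered non-MICs. The pair differences were 0.04, -0.46 and 0.09, and with the block limma gave a log2 difference of -0.11 with an interval of -0.60 to 0.38. Itga6, which pairs with β1 or β4, ranged from 10477 to 18874 over the 6 libraries, with pair differences of 0.09, -0.13 and 0.18 and an interval of -0.33 to 0.43. Itga7, a laminin receptor chain best known from muscle, ranged from 842 to 1335, with pair differences of 0.50, -0.12 and 0.32. None of these 3 genes had an unadjusted p under 0.05 in limma, edgeR or DESeq2, with or without the block where both were run.

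Itgb4, whose long cytoplasmic tail ties α6β4 to keratins in hemidesmosomes, was lower in MICs in all 3 pairs. Itgb4 stood at 11604, 13806 and 10111 in MICs 1, 2 and 3 and at 17502, 20463 and 10491 in non-MICs. MICs 1 and 2 reached 0.66 and 0.67 of their partners, and MIC 3 reached 0.96. With the block the log2 difference was -0.40 ± 0.18, with an interval of -0.80 to -0.01 and an adjusted p of 0.438 by limma, 0.457 by edgeR and 0.413 by DESeq2. Rescaling by TMM factors turned the pair 3 difference from -0.05 to 0.02.

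Lama3 and Lamb3, a pair of laminin-332 chains, had the same sign as each other in each pair. Lama3 encodes the alpha chain, α3. MICs 1, 2 and 3 had 7694, 697 and 5523 normalized reads of Lama3, and non-MICs 2756, 987 and 3841. Its pair differences were 1.48, -0.50 and 0.52, so the MIC library was higher in pairs 1 and 3 and lower in pair 2. Lamb3, the β3 chain, had 12495, 3749 and 8091 in MICs against 6222, 6121 and 5710 in non-MICs, with pair differences of 1.01, -0.71 and 0.50. Both chains were highest in MIC 1 and lowest in MIC 2, and the non-MIC libraries lay in between. The adjusted p by edgeR with the block was 0.233 for Lama3 and 0.691 for Lamb3. Without pair 2, edgeR with the block called 6 members (Itga1, Itga5, Itga11, Itgb3, Lama3 and Lamb3), all of them higher in MICs. Pair 2 is the one in which Itga5, Lama3 and Lamb3 were lower in MICs, and that fit was chosen after seeing the data. The share of all genes called in that fit is not given here, so the count cannot be read as a trait of this family. The basal marker sums given above, 1.56, 0.01 and 0.62 by pair, had the same order of pairs as both chains. The median difference over the 9 basal markers, 1.94, 1.48 and 1.18 by pair, had another order. The part of these markers in the values of both chains was not tested.

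The laminin-511 chains had no common direction. Lama5, the α5 chain, was lower in MICs of pairs 1 and 2 only. In MICs 1, 2 and 3 the normalized read count of Lama5 was 13423, 25827 and 8900.2, against 25955, 45012 and 8741 in the same-numbered non-MICs. The MIC value was 0.52 and 0.57 of its partner in pairs 1 and 2 and 1.02 of it in pair 3. With the block limma gave a log2 difference of -0.58 ± 0.21 with an interval of -1.04 to -0.12, and the adjusted p was 0.418 by limma, 0.202 by edgeR and 0.282 by DESeq2. Without pair 3, the one in which Lama5 was not lower, edgeR with the block called Lama5 lower, Itga5 higher and Lama1 higher. This fit, too, was chosen after seeing the data, and its share of all genes called is not given. Lamb1, the β1 chain, ranged from 18445 to 27421 over the 6 libraries, with pair differences of 0.06, -0.26 and 0.27, and Lamc1, the γ1 chain, from 4952 to 7431, with 0.33, -0.31 and 0.20. For both, the interval of the log2 difference by limma with the block spanned 0, from -0.39 to 0.43 and from -0.31 to 0.45.

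**Figure D3:**
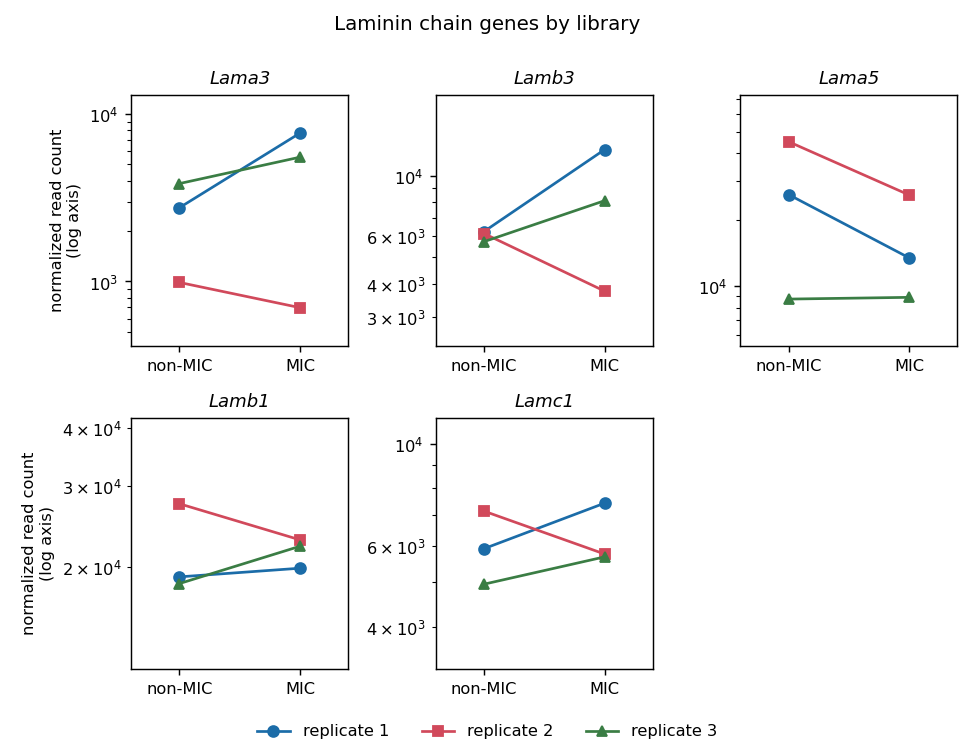
Normalized read counts of Lama3 and Lamb3 (laminin-332) and of Lama5, Lamb1 and Lamc1 (laminin-511) in non-MICs and MICs on log axes, with a line for each replicate number. The lines of Lama3 and Lamb3 run upward to the MICs in replicates 1 and 3 and downward in replicate 2, with pair differences of Lama3 of 1.48, 0.52 and -0.50, and those of Lama5 run downward in replicates 1 and 2 only.

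The remaining laminin chains were less abundant. Lama1, the alpha chain of laminin-111, was higher in MICs in all 3 pairs. Its values were 563, 16.7 and 310.4 in MICs against 212, 7.40 and 275 in non-MICs, so that replicate 2 had only 15 and 7 reads. The pair differences were 1.41, 1.07 and 0.17, with an adjusted p of 0.0894 by edgeR and 0.418 by limma, both with the block. Lama4, of vascular and mesenchymal laminins, had pair differences of 0.68, 0.38 and 0.12 at 280.0 to 1937 normalized reads, and edgeR with the block gave an adjusted p of 0.401. Lamb2, the β2 chain, was lower by 0.42, 0.19 and 0.09, at 963 to 2343. Lamc3 ranged from 18.9 to 77.6 with pair differences of 0.57, -0.08 and -0.33, and Lama2, the alpha chain of muscle laminin, had only 2 to 28 reads in a library.

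Set side by side per kilobase of exon, the chains of 1 class give the makeup of that class in each library. Lama5 took 55.8%, 95.9% and 53.8% of the laminin alpha signal in MICs 1, 2 and 3 and 85.7%, 97.1% and 60.6% in non-MICs. Lama3 took 33.9%, 2.74% and 35.4% in MICs against 9.65%, 2.26% and 28.2% in non-MICs. In every pair the MIC library thus had the smaller Lama5 share and the larger Lama3 share. Both are parts of 1 sum and so are not independent. In pair 2 the Lama3 count itself was lower in the MIC library, at 697 against 987, as was that of Lama5, at 25827 against 45012. An exact two-sided permutation test over 3 against 3 libraries cannot give a p under 0.1, and it ignores the pairs. An exact two-sided test over the 3 pairs cannot go as low as that. The populations overlapped in both shares. Lamb1 made up 48.7% to 71.9% of the laminin beta signal over the 6 libraries.

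On the same scale Itgb1 made up 72.4% to 87.4% of the integrin beta signal and Itga3 61.9% to 80.4% of the integrin alpha signal. Itga3 held a smaller share in the MIC than in the non-MIC library of each pair, 62.7% against 74.1%, 75.2% against 80.4% and 61.9% against 67.1%. The Itga5 share was the larger one in MICs, at 13.3% against 2.32%, 6.02% against 5.12% and 2.25% against 1.20%. The Itgb4 share of the beta signal was 5.40% in MICs against 9.63% in non-MICs of pair 1, 9.52% against 15.8% in pair 2 and 5.78% against 7.36% in pair 3. These shares depend on the sum of their class as well as on the gene itself. In pair 2 the Itga5 count was lower in the MIC library, at 5106 against 5567, although its share was larger.

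**Figure D4:**
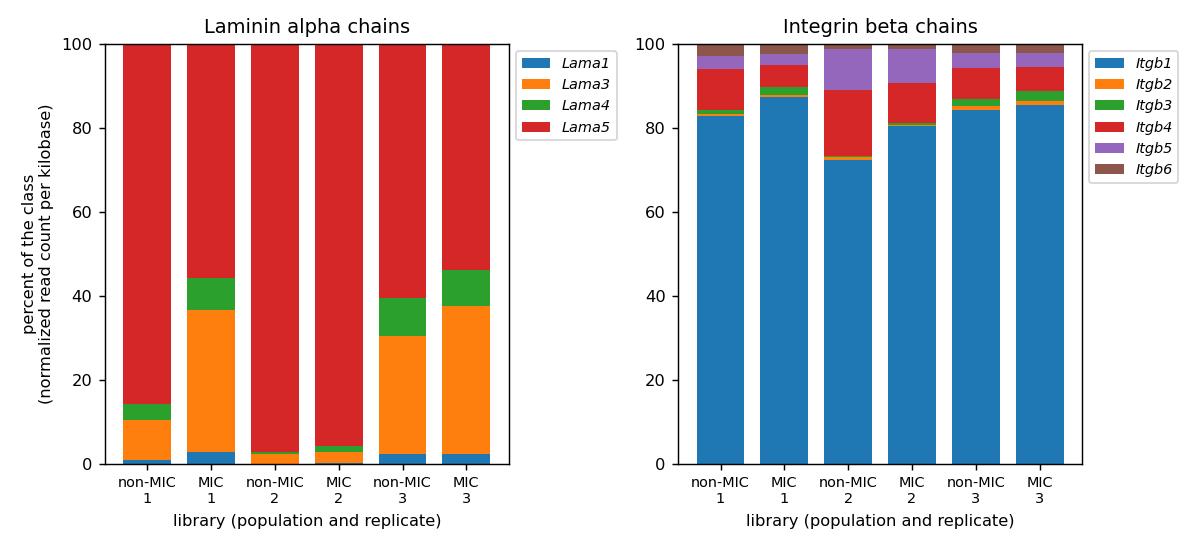
Percent of the summed normalized read count per kilobase of exon taken by each laminin alpha chain (left) and integrin beta chain (right), with a bar for each library and chains under 1% in every library left out. Lama3 takes a larger part of the MIC bar than of the non-MIC bar in each pair, with 33.9% against 9.65% in replicate 1. In replicate 2 it takes 2.74% against 2.26%, although its read count was lower in the MIC library. Itgb1 fills at least 72.4% of every bar on the right.

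In order of their mean level per kilobase, the members reported here ran from Itgb1 (19447) and Itga3 (11917) through Lamb1 (2184), Itgb4 (1995), Lama5 (1871), Itga6 (1659) and Itga2 (1455) down to Lama2 (0.466). The lowest Itga3 library lay above the highest Lamb1 library, at 9776 against 2765. Itgb1 and Itga3 overlapped over libraries, as did each neighbour from Lamb1 to Itga2 in that order, so their order is not settled by these libraries. A mean of at least 1000 normalized reads was reached by 19 of the 36 genes. At the other end, 28 had at least 10 reads in every library and 8 did not.

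The integrin chains of leukocytes had few reads, with the exception of Itgb2. Itgal, Itgam, Itgax and Itgae, the alpha chains of LFA-1, Mac-1, CD11c and CD103, had 0 to 27 reads in a library, and Itgam had none in either library of replicate 1. Itgb7, the beta partner of Itgae, had 1 to 6 reads. Itgb2, the beta chain that pairs with the first 3 of these alpha chains, stood at 205 to 703 normalized reads and at 153 per kilobase on average, against 0.66 to 1.61 per kilobase for the 4 alpha chains. The part of leukocytes in this value was not tested. Ptprc, which encodes the CD45 of the lineage gate, was at 0 in MIC 1 and non-MIC 1, where Itgb2 had 476 and 390.5. It was at 10.0 and 6.34 in MIC 2 and non-MIC 2 and at 9.47 and 2.10 in MIC 3 and non-MIC 3. In MIC 1 and non-MIC 1, Cd14 was at 1179 and 1048, Csf1r at 112 and 92.1, Cd68 at 60.4 and 84.7 and Lyz2 at 31.3 and 46.6. Tyrobp, Fcer1g, Adgre1, Cd52 and Cd79a were at 2.16 or lower there. Lyz2 reached 1635 in MIC 2. Itgb2 pair differences were 0.28, -0.82 and 0.08. Itga4 and Itga9, the alpha chains that bind VCAM-1, fibronectin or tenascin, were higher in MICs in all 3 pairs at low levels. Itga4 had 20, 17 and 11 reads in MICs and 12, 3 and 3 in non-MICs, and an adjusted p of 0.238 by edgeR with the block. Itga9 had 338, 93.4 and 45.3 normalized reads in MICs and 137, 83.5 and 31.6 in non-MICs, with pair differences of 1.30, 0.16 and 0.51 and an adjusted p of 0.294 by edgeR with the block.

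Some of these values may be shared with neighbouring genes. By the annotation 11 members share exon bases with another gene, 3 of them (Itga1, Itga10 and Itgam) on the same strand and 8 on the opposite strand, and how the counting treated such reads is not given in the sources used here. The overlap of Itga1 is 685 of 18599 exon bases, that of Itga10 1739 of 5186 and that of Itga4 with Cerkl 1124 of 13978, where Cerkl itself had at most 1.35 normalized reads.

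The partners of these chains were taken from compiled lists, chosen with earlier results of these data known, so their counts are descriptions. Of 20 basement membrane partners of laminin, 5 had an unadjusted p under 0.05 by limma with the block and 3 rose by edgeR with the block after adjustment, beside 11.2% and 1.04% of all genes: Nid1, a laminin-to-collagen IV linker (adjusted p = 0.025), Sparc, a collagen-binding glycoprotein (0.0072), and Smoc2, a Sparc relative (0.00601). Their pair differences were 1.77, -0.19 and 0.68 for Nid1, 2.35, -0.27 and 0.72 for Sparc and 3.07, 0.33 and 2.60 for Smoc2. The list median was 0.37. Of 6 genes of hemidesmosomes and of the keratins tied to them, integrins aside, 2 rose by edgeR with the block, against 1.04% of all genes. They were Col17a1, a transmembrane collagen of hemidesmosomes, with pair differences of 3.05, 0.77 and 1.17, and Krt5, with 3.45, 2.04 and 1.20. Krt5 is a basal keratin that was already counted among the basal markers. Krt14, its partner, had 0.50, -0.90 and 0.11, and Plec, Dst and Cd151 did not pass, the list median being 0.15.

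Of 35 integrin activators and adaptors, 3 rose by edgeR with the block (Tgfb1i1, Lims2 and Tns1), against 1.04% of all genes, and 0 fell. Tgfb1i1 (Hic-5), a focal adhesion protein of the paxillin family, had pair differences of 1.82, 2.09 and 2.10. Lims2 (PINCH-2), a partner of integrin-linked kinase, had 1.21, 1.21 and 1.65, and Tns1, a tensin, had 1.53, 0.13 and 0.80. Tgfb1i1 also passed by limma with the block, with an adjusted p of 0.0042. The list median was -0.07, close to that of all genes. Of 17 measured ligands of the RGD-binding integrins, 2 rose by edgeR with the block, against 1.04% of all genes. They were Postn (periostin, pair differences 2.79, 2.46 and 2.25) and Fbn1 (fibrillin-1, 1.58, -0.08 and 2.46). Postn also passed by limma with the block, with an adjusted p of 3.25e-05. Fn1, the ligand of α5β1, had pair differences of 0.31, 0.02 and 0.34 and an adjusted p of 0.847 by edgeR with the block. The list median was 0.10. The 6 receptors of laminin other than integrins had 0 calls and a median of -0.02, with Dag1, which encodes dystroglycan, at -0.14, -0.34 and 0.06. By edgeR with the block 0 genes of these lists fell, while 0.372% of all genes did. No listed gene passed limma without a block.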

How the data were processed

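RNA from 3 MIC and 3 non-MIC libraries was sequenced for 75 cycles. The authors deposited a signal per gene, which is the read count divided by a size factor to the same total. The labels name STAR, HTSeq and mm10, whereas the methods of the paper name Bowtie2 and samtools, and which was used for this table could not be settled. Values were divided by the value of 1 read (0.676 to 1.11), which gave whole reads within 0.01 for 99.99% to 100% of genes. Counts are not collapsed by molecule, so depth sets counting error only.

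Symbols, positions and exon lengths came from GENCODE vM21 on GRCm38 for 22161 of 22310 identifiers, and 149 had no symbol. Promoter windows came from RefSeq. No protein table was used here. The members and lists were chosen with earlier results of these data known.

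limma 3.58.1 (trend) was fitted to log2(value + 1) over all genes without a filter, in R 4.3.3, with Benjamini-Hochberg adjustment at 0.05. Its SEs, intervals and p-values use variances moderated toward a trend over all genes, not the spread of a gene's own pairs alone. The count tests DESeq2 1.42.0 and edgeR 4.0.16 (quasi-likelihood) took the recovered reads as input. Fold changes on the log2(value + 1) scale understate those of low genes. Both populations share replicate numbers in the labels. After the group means were subtracted, the MIC and non-MIC libraries of numbers 1, 2 and 3 had correlations of 0.573, 0.668 and 0.746, against -0.33 on average for different numbers, so results are also given with the replicate number as a block. Levels between genes were compared per 1000 bases of the union of exons. Full statistics are given for members called with the block, the chains of laminin-332 and laminin-511 and their receptors, the integrins of the study's primer list (Itga5, Itgb3 and Itgb6), and members with 1 sign in 3 pairs and a mean log2 difference of at least 0.5 in size. Itgav was added after its values were seen. A gene that the rule covers is not reported here, though it stays in the fits and counts. Procedures were tested on simulated data. Alternatives were pseudocounts of 0.1 and 10, TMM and quantile scaling, a filter at the median level, no trend, the block, the count tests, and leaving out each library or pair.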

Additional observations from a re-analysis of the deposited data

How the results depend on the processing

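The number of members with an adjusted p under 0.05 was 0 by limma without a block, by limma with the block, by edgeR without it and by DESeq2 with or without it, under both other pseudocounts, both other scalings, the filter on low values and the fit without a trend. It was 3 by edgeR with the replicate block. When libraries or pairs were left out it ran from 0 to 6. The edgeR fits without a pair were chosen after seeing the data and gave 0 without pair 1, 6 without pair 2 and 3 without pair 3. By limma with the block and without pair 2 it was 1 (Itga5). The shares of all genes called in the fits without a pair are not given here. At an unadjusted p under 0.05 the number was 0 without a block, 10 by limma, 12 by edgeR and 9 by DESeq2 with the replicate block (11.2%, 11.7% and 8.58% of all genes), and it ran from 0 to 3 when single libraries were left out. Without pairs 1, 2 and 3 in turn it was 3, 11 and 4 by limma and 2, 12 and 10 by edgeR, both with the block. The replicate block changed no other call. The median of the members ran from 0.11 (without MIC 1) to 0.29 (without MIC 2) over the alternatives run for it, within the SD of 0.20 over its values by pair, and the numbers higher or lower in all 3 pairs stayed within 1.5 times.

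Leaving out a single library broke a pair and, for genes that differ between replicates, could turn the sign. The lowest and highest log2 fold changes were then -0.35 and 1.55 for Itga2, -1.41 and 0.25 for Itga2b, -0.26 and 0.17 for Itga3, -0.18 and 0.24 for Itga6, -0.13 and 1.31 for Itga9, -0.049 and 1.59 for Itgb3, -0.36 and 0.70 for Itgb6, -0.73 and 2.41 for Lama1, -0.16 and 1.58 for Lama3, -0.080 and 0.21 for Lamb1, -0.13 and 0.74 for Lamb3 and -0.059 and 0.21 for Lamc1. With the block and a pair left out, limma and edgeR gave 0.066 and 0.12 for Itga3 without pair 2, -0.019 and -0.0053 for Itga6 without pair 3, -0.098 and -0.085 for Lamb1 without pair 3, -0.10 and -0.12 for Lamb3 without pair 1 and -0.056 and -0.076 for Lamc1 without pair 1, and edgeR gave -0.015 for Lamb1 without pair 1. Quantile normalization gave -0.044 for Lamb1, and the cause was not tested. Of the recomputed values of named members, 353 kept their direction and side of the threshold, 13 became called and 33 turned. At 3 reads or fewer in a library a difference cannot be told from counting error, which touches Itga4, Lama2, Itgb7 and the leukocyte alpha chains.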
